A study of Mus musculus with 16 samples.

Results

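A set of 10 genes of the extracellular matrix was followed in cultured mouse macrophages: Fn1, Tgfbi, Ecm1, Spp1, Sparc, Vcan, Lgals1, Lgals3, Ltbp2 and Plod1. They were chosen by name as the matrix and matricellular genes of macrophages, with earlier results of these data known. Each matched 1 row of the count table, so that 10 of 35275 genes are described. All 10 passed the filter on low counts, which kept 13080 genes. Polyadenylated RNA was sequenced in 16 libraries, 4 in each of 4 groups.

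The macrophages came from tibial marrow of C57BL/6 mice. Control mice were Smad7 fl/fl littermates, carrying floxed alleles of Smad7 and no Cre. Knockout mice (KO) were Smad7 fl/fl + CAGGCre-ER, with an inducible Cre under the CAGG promoter that deletes Smad7 in the whole animal and not in macrophages alone. Both genotypes were given tamoxifen at 20 mg/kg on 5 days at 1 month of age, and killed 2 weeks later for their marrow. The culture medium held CSF-1, the macrophage growth factor, at 12 ng/ml for 24 hours and 120 ng/ml for 48 hours, in 15% serum. Serum was then withheld for about 12 hours, and the cells were left alone or received 10 ng/ml of TGF-β1 for 4 hours. Smad7 loss and the presence of Cre go together in the KO group and cannot be told apart. The labels do not say whether the 4 replicates of a group came from separate animals, so p-values measure the spread between these libraries. The labels list 16 libraries where the library protocol speaks of fewer, and this was not resolved.

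The extracellular matrix is a scaffold of fibrillar and adhesive proteins, proteoglycans and microfibrils. Matricellular proteins sit in it without building it and signal to cells through integrins and other receptors. TGF-β is known as an inducer of matrix genes in mesenchymal cells, acting through receptor-activated Smad proteins, and Smad7 is an inhibitory Smad that restrains the receptor. Macrophages secrete some of these proteins and also take matrix up and degrade it.

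In brief, Tgfbi and Plod1 rose with TGF-β1 in fl/fl macrophages. Ltbp2 and Plod1 rose in KO macrophages, with adjusted p near the threshold, and Tgfbi also rose there when KO untreated replicate 1, a library that stood apart, was left out. No member differed between the genotypes by edgeR, the main test, which with all libraries did not call Smad7, the deleted gene, either. DESeq2 called Fn1 lower in KO with TGF-β1. Levels covered a wide range. Per length of transcript, on the FPKM scale, Lgals3 was at 1308 ± 275 (SD, n = 4) in fl/fl untreated libraries and Ltbp2 at 0.132 ± 0.0571 (SD, n = 4).

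The upstream sequences of 2 members that passed the test for TGF-β1 in fl/fl macrophages, Tgfbi and Plod1, are shown beside that of Ecm1, which lay at a level near that of Plod1 and did not pass. Each is the 250 bases before the start of the gene, from RefSeq on GRCm38.p6, 5′ to 3′ on the strand of the gene. Capitals mark matches to motifs searched on both strands: CAGACA and GTCTAGAC, which are Smad-binding letters, GGCGC, a GC-rich Smad-binding motif, and TGACTCA, the AP-1 site.
Tgfbi, chr13:56609336-56609585, plus strand: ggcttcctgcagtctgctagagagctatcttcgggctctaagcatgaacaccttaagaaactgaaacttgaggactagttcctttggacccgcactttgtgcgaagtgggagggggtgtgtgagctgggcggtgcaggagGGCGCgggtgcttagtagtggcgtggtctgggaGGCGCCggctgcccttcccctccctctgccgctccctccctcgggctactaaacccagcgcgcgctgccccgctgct
Plod1, chr4:147936777-147937026, minus strand: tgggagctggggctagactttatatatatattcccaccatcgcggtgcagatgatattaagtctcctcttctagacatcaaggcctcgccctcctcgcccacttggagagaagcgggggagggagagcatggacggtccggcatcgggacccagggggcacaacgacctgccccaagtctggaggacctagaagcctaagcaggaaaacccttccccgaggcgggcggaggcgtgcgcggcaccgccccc
Ecm1, chr3:95739570-95739819, minus strand: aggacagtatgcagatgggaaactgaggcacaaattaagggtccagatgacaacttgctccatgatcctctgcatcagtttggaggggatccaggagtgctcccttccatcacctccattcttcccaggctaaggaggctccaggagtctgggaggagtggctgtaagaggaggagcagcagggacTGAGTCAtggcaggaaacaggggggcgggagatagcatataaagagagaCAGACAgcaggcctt
The Tgfbi window held 3 matches to GGCGC, of which 2 overlap as one GGCGCC, and the Plod1 window held none of the 4 motifs. The Ecm1 window held 1 CAGACA and 1 TGAGTCA, the reverse complement of TGACTCA. The table held 9 windows for 8 members, with 2 for Spp1, and 4 of the 9 held CAGACA on either strand (those of Ecm1, Lgals3 and Sparc and 1 of Spp1), against 17.1% of 32851 promoters. GGCGC was in 2 of 9 (Lgals3 and Tgfbi) against 32% of promoters, TGACTCA in 1 of 9 against 4.46%, and GTCTAGAC in 0 of 9 against 0.167%. No entry was used for Fn1 and Lgals1. These counts describe letters in the windows.

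Total counts ran from 16865591 to 23741079 per library. Smad7 itself, as mean CPM ± SD over 4 libraries, was 4.99 ± 0.895 in fl/fl untreated, 45.5 ± 9.20 in fl/fl TGF-β1, 2.70 ± 2.14 in KO untreated and 13.9 ± 4.36 in KO TGF-β1 libraries. CPM here is the count scaled to the TMM-adjusted library total, and serves for comparing libraries within a gene. Among the 4 KO untreated libraries, replicate 1 stood apart: its Smad7 was 5.87 CPM, against 1.28 to 2.00 in the other 3. That Smad7 value lay within the fl/fl untreated range (3.89 to 6.03 CPM) and below the KO TGF-β1 range (10.3 to 19.7 CPM). For Tgfbi, Plod1 and Vcan replicate 1 lay within the range of the KO TGF-β1 libraries and outside that of the other KO untreated libraries. For Fn1, Sparc, Lgals3 and Ltbp2 it lay in neither range. For Ecm1, Spp1 and Lgals1 it lay within that of the other KO untreated libraries. Replicate 1 was kept where its label puts it, and member results whose call or overlap it changes are given with and without it. For the gene lists this was done in part. All 8 macrophage markers were tested, with a summed level of 17006 to 25176 CPM. The 10 fibroblast and stromal markers summed to 1.15 to 9.24 CPM in any library, and 2 of the 10 passed the filter. In bulk RNA, fewer cells of a type and less RNA per cell cannot be told apart.

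**Figure D1:**
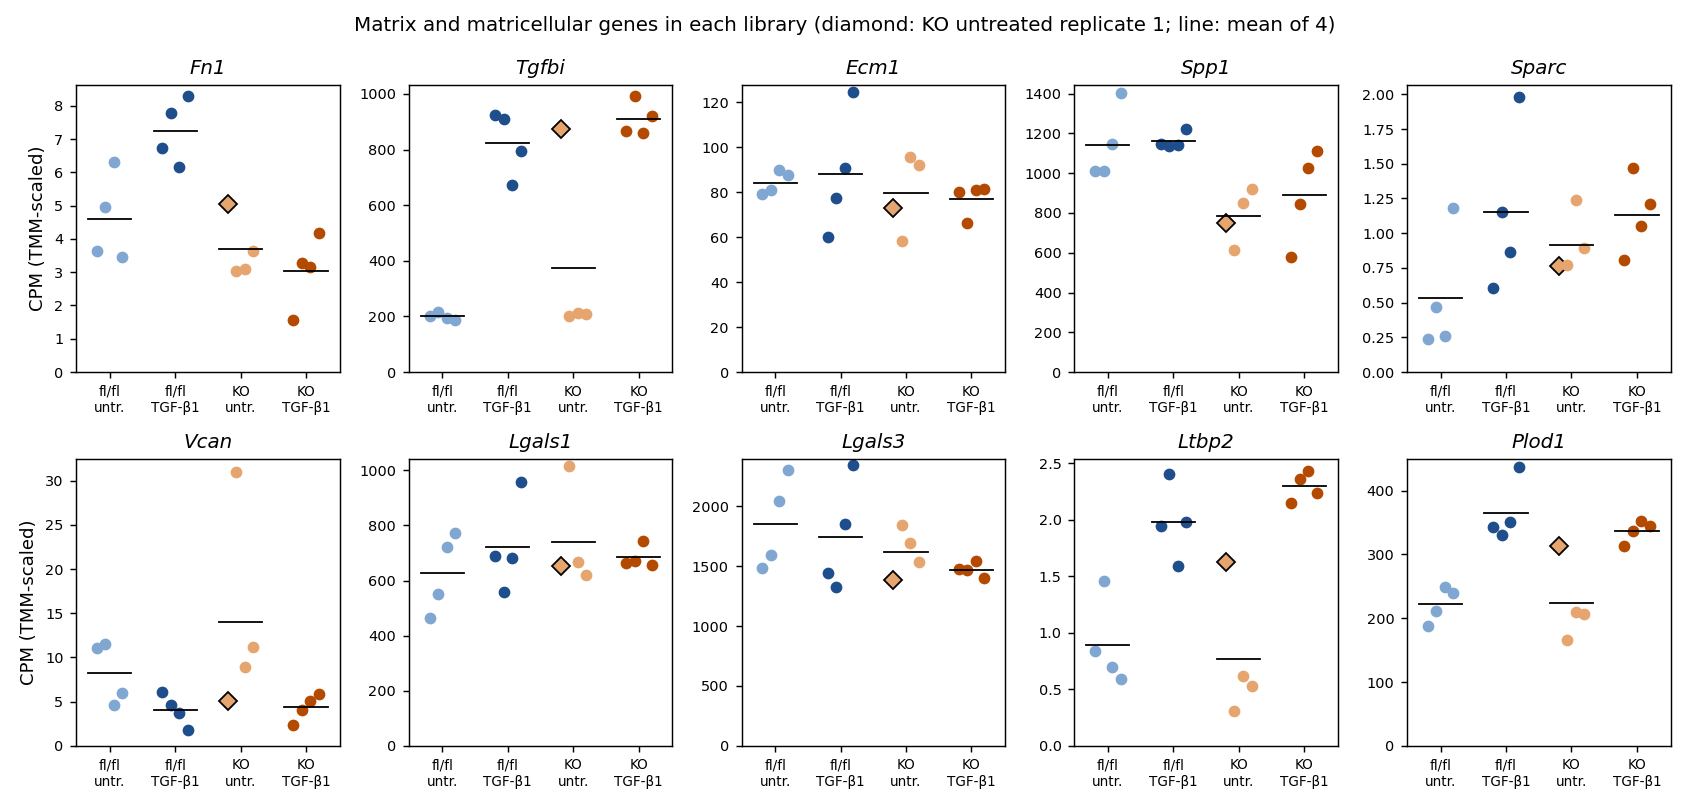
TMM-scaled CPM of each member in every library, by group (x axis), with the mean of 4 libraries as a line and KO untreated replicate 1 as a diamond. Tgfbi, Plod1 and Ltbp2 are higher with TGF-β1 in every fl/fl library, and the diamond lies at 875 CPM for Tgfbi, among the KO TGF-β1 libraries.

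With TGF-β1 in fl/fl macrophages, 2 of 10 members rose and 0 fell. Of all 13080 genes tested, 7.87% rose and 7.61% fell. The members were chosen with earlier results of these data known, so these shares and medians only describe them. The median log2 fold change of the members was 0.43, and that of all genes was -0.01. At an unadjusted p under 0.05 there were 5 members, all of them higher, with 27.4% of genes under that p in either direction. In KO macrophages 2 of 10 members rose and 0 fell, with 2.19% of all genes higher and 2.97% lower. The median over the members was 0.07 there, against -0.03 over all genes, and 4 members and 17.7% of genes were at an unadjusted p under 0.05. Without KO untreated replicate 1, 3 members rose in fl/fl, with 8.91% of genes higher and 9.23% lower. In KO, without that library, 3 rose and 1 fell, with 8.33% of genes higher and 6.88% lower. DESeq2 on all 16 libraries called 3 members higher in each genotype and 1 lower in KO. By DESeq2 9.18% of genes were higher and 9.22% lower in fl/fl, and 3.93% were higher and 4.46% lower in KO.

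Tgfbi, Fn1 and Ecm1 are secreted glycoproteins of the matrix. Tgfbi (ENSMUSG00000035493, chromosome 13, 56609603 to 56639339, mm10) encodes a secreted protein named for its induction by TGF-β, which binds collagens and integrins. In fl/fl untreated libraries it was at 203, 215, 195 and 189 CPM. With TGF-β1 it was at 925, 908, 674 and 794 CPM. No treated library overlapped an untreated one, a separation upward that 11.4% of genes showed. The log2 fold change was 2.04 ± 0.38 (SE), or 4.12-fold, with an adjusted p of 0.00251 by edgeR's quasi-likelihood test with Benjamini-Hochberg adjustment.

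In KO untreated libraries Tgfbi was at 875 CPM in replicate 1 and at 201, 214 and 207 CPM in the others. With TGF-β1 it was at 867, 992, 859 and 919 CPM. The groups overlapped through replicate 1, and the log2 fold change of 1.28 ± 0.37 did not pass (edgeR adjusted p = 0.0614). It did pass with a term for replicate number (1.499 ± 0.33, edgeR adjusted p = 0.0271), by DESeq2 (adjusted p = 0.0234) and by limma on log2(FPKM + 0.1) and log2(FPKM + 1) (adjusted p = 0.0177 and 0.0171). Without that library it was 2.16 ± 0.12, the groups did not overlap, and it rose (edgeR adjusted p = 4.1e-10). Separation upward without that library was seen in 11.5% of genes. Tgfbi in KO passed in 5 of 23 alternatives, all given here. With 1 library left out the edgeR adjusted p ran up to 0.195. The difference between the responses, KO minus fl/fl, was -0.76 ± 0.52 on the log2 scale with all libraries and 0.12 ± 0.15 without replicate 1, with edgeR adjusted p of 0.993 and 0.982.

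The 3 genes whose pattern was nearest to Tgfbi over the 16 libraries, by the mean absolute difference in centred log2 CPM, were Epb4.1l2 (0.0962), Chd7 (0.133) and Itga5 (0.140). The median over all genes was 1.05. Itga5 encodes the integrin subunit that pairs with Itgb1 in the fibronectin receptor. Its mean CPM ± SD over 4 libraries was 164 ± 10.8 in fl/fl untreated, 689 ± 47.2 in fl/fl TGF-β1 and 618 ± 26.1 in KO TGF-β1 libraries. KO untreated replicate 1 was at 521 CPM.

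Fn1 (ENSMUSG00000026193, chromosome 1, 71585520 to 71653200) encodes fibronectin, an adhesive glycoprotein that cells bind through integrins. It was low, between 29 and 159 counts per library. In fl/fl untreated libraries it was at 3.65, 4.95, 6.29 and 3.45 CPM and with TGF-β1 at 6.74, 7.78, 6.16 and 8.29 CPM. The groups overlapped at their edges, and the log2 fold change of 0.66 ± 0.27 did not pass (edgeR adjusted p = 0.114). In KO libraries Fn1 was at 5.06, 3.03, 3.10 and 3.62 CPM untreated and at 1.56, 3.29, 3.15 and 4.16 CPM with TGF-β1. The values overlapped, with a log2 fold change of -0.28 ± 0.28 (edgeR adjusted p = 0.720), and of -0.0654 ± 0.28 without untreated replicate 1 (edgeR adjusted p = 0.942). Apol7d overlaps Fn1 on the opposite strand, and its counts were not examined. With the strand used in counting not stated, reads of these genes cannot be told apart.

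Ecm1 (ENSMUSG00000028108, chromosome 3, 95734147 to 95739569) encodes extracellular matrix protein 1, a secreted glycoprotein. It was at 79.0 to 89.7 CPM in fl/fl untreated and 60.1 to 124 CPM in fl/fl TGF-β1 libraries. The range in KO was 58.4 to 95.5 CPM untreated and 66.4 to 81.2 CPM with TGF-β1. The log2 fold changes with TGF-β1 were 0.06 in fl/fl (95% interval -0.32 to 0.44) and -0.05 in KO (-0.43 to 0.33), and neither passed.

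The matricellular genes Spp1 and Sparc lay at opposite ends of the level scale. Spp1 (ENSMUSG00000029304, chromosome 5, 104435118 to 104441050) encodes osteopontin, a secreted integrin-binding phosphoprotein. In fl/fl libraries it was at 1012, 1013, 1145 and 1403 CPM untreated and at 1147, 1139, 1144 and 1221 CPM with TGF-β1. In KO libraries it was at 750, 612, 848 and 920 CPM untreated and at 580, 846, 1028 and 1112 CPM with TGF-β1. The TGF-β1 groups overlapped in both genotypes, with log2 fold changes of 0.02 (95% interval -0.34 to 0.39) in fl/fl and 0.19 (-0.18 to 0.55) in KO.

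Between genotypes every KO library was below every fl/fl library for Spp1, both untreated and with TGF-β1. Separation downward was seen in 4.11% of genes for the untreated libraries and in 2.61% for the TGF-β1 libraries. Without KO untreated replicate 1 the untreated groups still did not overlap, with 7.05% of genes separated downward. The log2 difference of KO from fl/fl was -0.55 ± 0.17 untreated and -0.38 ± 0.17 with TGF-β1, and neither passed adjustment (edgeR adjusted p = 0.406 and 0.877, unadjusted 0.00552 and 0.0400).

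Sparc (ENSMUSG00000018593, chromosome 11, 55394500 to 55420080) encodes osteonectin, which binds collagen and calcium. It was near the floor of the assay, with 4 to 38 counts per library. In fl/fl libraries it was at 0.239, 0.466, 0.260 and 1.18 CPM untreated and at 0.607, 1.15, 0.866 and 1.98 CPM with TGF-β1. Replicate 4 was highest in both groups, and the groups overlapped through it. In all 4 same-numbered pairs the treated library was the higher one. The labels do not say that a number marks a shared animal, and the share of all genes with this pattern was not counted. The log2 fold change was 1.07 ± 0.50 (edgeR adjusted p = 0.174), and with a term for replicate number it was 1.14 ± 0.45 (edgeR adjusted p = 0.112). Without fl/fl untreated replicate 4 it was 1.82 ± 0.50 and passed (edgeR adjusted p = 0.0237). Without fl/fl TGF-β1 replicate 4 it was 0.67 ± 0.50 and did not pass (edgeR adjusted p = 0.465). It passed in 1 of 23 alternatives. In KO libraries the 4 untreated values ran from 0.764 to 1.24 CPM and the treated ones from 0.807 to 1.47 CPM, with overlap.

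Vcan (ENSMUSG00000021614, chromosome 13, 89655312 to 89742509) encodes versican, a large proteoglycan that binds hyaluronan. In fl/fl libraries it was at 11.1, 11.5, 4.60 and 6.02 CPM untreated and at 6.13, 4.60, 3.65 and 1.82 CPM with TGF-β1. The groups overlapped, and the log2 fold change of -1.03 ± 0.51 did not pass (edgeR adjusted p = 0.202). The treated library was the lower one in all 4 same-numbered pairs, with the same limits as for Sparc. With a term for replicate number the log2 fold change was -0.99 ± 0.48 (edgeR adjusted p = 0.202). In KO libraries it was at 5.11, 31.0, 8.94 and 11.1 CPM untreated and at 2.31, 4.02, 5.09 and 5.91 CPM with TGF-β1. The log2 fold change was -1.69 ± 0.50 (edgeR adjusted p = 0.0636).

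Single libraries decided that value for Vcan. Without KO untreated replicate 1 the groups did not overlap, a separation downward that 12.6% of genes showed, and the log2 fold change of -1.94 ± 0.44 passed (edgeR adjusted p = 0.00458). Without KO untreated replicate 2, the library at 31.0 CPM, it was -0.94 ± 0.40 and did not pass (edgeR adjusted p = 0.297). DESeq2 on all libraries gave -1.67 ± 0.46 and an adjusted p of 0.00742. Gm4117 lies on the opposite strand of Vcan and also had most counts in KO untreated replicate 2 (80, against 0 to 36 in the other 15 libraries). The strand used in counting was not stated, so reads of the 2 genes cannot be told apart. Another gene on that strand, Gm16318, had 0 counts in every library.

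**Figure D2:**
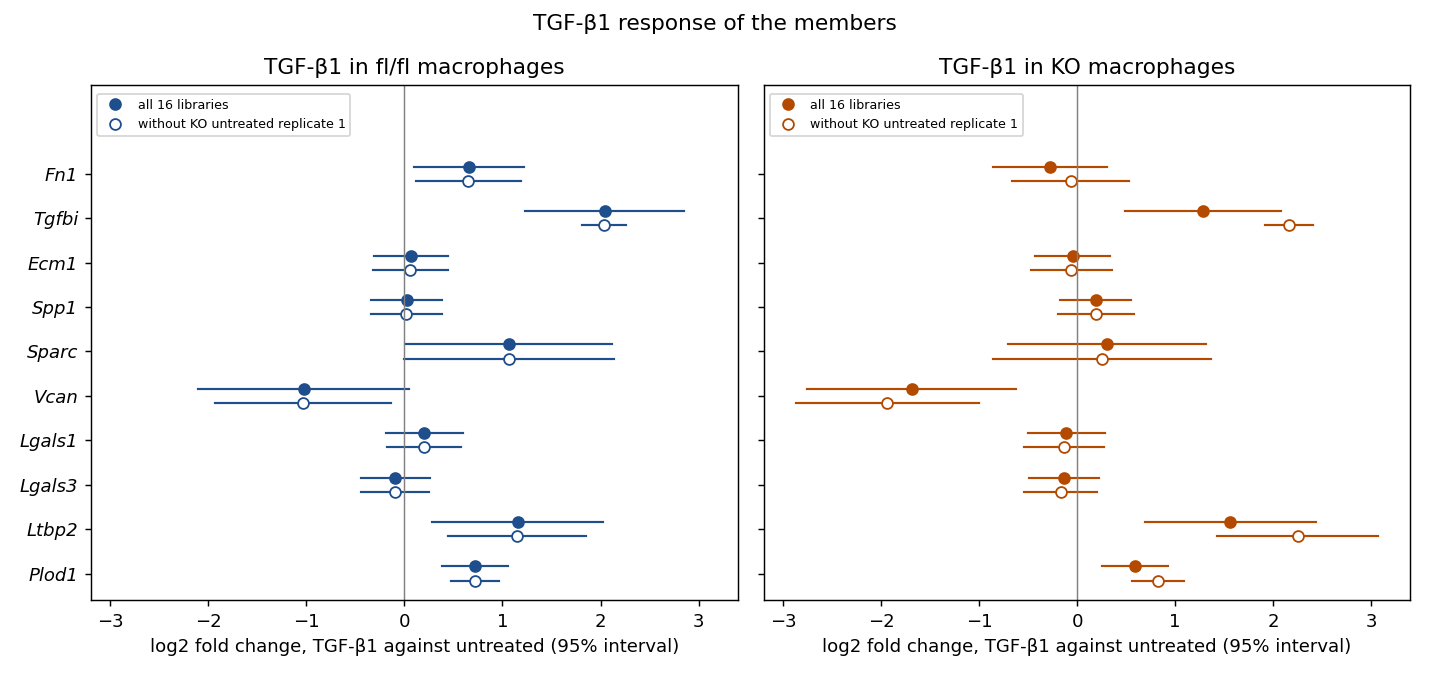
Log2 fold change with TGF-β1 and its 95% interval for each member in fl/fl (left) and KO (right) macrophages, with all 16 libraries (filled) and without KO untreated replicate 1 (open). Leaving that library out moves Tgfbi in KO from 1.28 to 2.16 and leaves it at 2.04 in fl/fl.

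The galectins, lectins that bind galactosides on glycoproteins, were the most abundant members with Spp1. Lgals1 (ENSMUSG00000068220, chromosome 15, 78926725 to 78930465) was at 465, 550, 720 and 772 CPM in fl/fl untreated and at 690, 559, 681 and 957 CPM in fl/fl TGF-β1 libraries. Lgals3 (ENSMUSG00000050335, chromosome 14, 47367751 to 47386160) was at 1487, 1591, 2043 and 2302 CPM and at 1440, 1327, 1853 and 2348 CPM in the same libraries. For Lgals3, replicates 3 and 4 were above replicates 1 and 2 in both fl/fl groups. In the untreated fl/fl group, replicates 3 and 4 also had the larger totals, of 22917896 and 23741079 counts against 16865591 and 17192812. In the treated group the totals did not follow that order, at 17419985, 20343451, 21246283 and 19409661 counts in replicates 1 to 4. The part of depth in the galectin values was not tested. In KO libraries Lgals3 ran from 1388 to 1848 CPM untreated and from 1403 to 1547 CPM with TGF-β1.

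Neither galectin passed the test for TGF-β1. For Lgals1 the log2 fold change was 0.20 in fl/fl (95% interval -0.19 to 0.60) and -0.11 in KO (-0.50 to 0.28). For Lgals3 it was -0.09 in fl/fl (-0.45 to 0.26) and -0.13 in KO (-0.49 to 0.22).

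Ltbp2 (ENSMUSG00000002020, chromosome 12, 84783212 to 84876532) encodes a latent TGF-β binding protein of the fibrillin superfamily that, unlike its relatives, does not bind the latent cytokine and is found with elastic microfibrils. It was low, between 6 and 50 counts per library. In fl/fl libraries it was at 0.837, 1.46, 0.695 and 0.589 CPM untreated and at 1.94, 2.40, 1.59 and 1.98 CPM with TGF-β1. The groups did not overlap, but the log2 fold change of 1.16 ± 0.41 did not pass (edgeR adjusted p = 0.0698). Without KO untreated replicate 1 it passed, at 1.15 ± 0.33 (edgeR adjusted p = 0.0213). It also passed without untreated replicate 2 of either genotype (edgeR adjusted p = 0.0418 for fl/fl and 0.0413 for KO) and by DESeq2 (adjusted p = 0.0264). These were the only 4 of 23 alternatives in which it passed. The edgeR adjusted p ran up to 0.182 with 1 library left out.

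In KO libraries Ltbp2 was at 1.62, 0.308, 0.620 and 0.525 CPM untreated and at 2.15, 2.36, 2.43 and 2.24 CPM with TGF-β1. The groups did not overlap, a separation upward that 2.98% of genes showed, and replicate 1 lay between the other untreated libraries and the treated ones. Ltbp2 rose, with a log2 fold change of 1.56 ± 0.42 (edgeR adjusted p = 0.0388), and without replicate 1 it was 2.25 ± 0.39 (edgeR adjusted p = 3.8e-04). The call was lost in 13 of 23 alternatives, among them each of the other 7 KO libraries left out, and the edgeR adjusted p ran up to 0.140 with 1 library left out. D030025P21Rik, on the opposite strand, had at most 6 counts in any library.

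Plod1 (ENSMUSG00000019055, chromosome 4, 147909753 to 147936767) encodes a lysyl hydroxylase, which modifies collagen lysines before cross-linking. In fl/fl libraries it was at 187, 211, 249 and 240 CPM untreated and at 343, 330, 351 and 437 CPM with TGF-β1, without overlap. It rose by a log2 fold change of 0.72 ± 0.16, or 1.65-fold (edgeR adjusted p = 0.00477). In KO libraries it was at 313, 166, 210 and 206 CPM untreated and at 313, 337, 352 and 345 CPM with TGF-β1. Untreated replicate 1 was level with the lowest treated library, and the rise was 0.59 ± 0.16 (edgeR adjusted p = 0.0391). Without it the groups did not overlap and the rise was 0.82 ± 0.13 (edgeR adjusted p = 1.2e-04). The call was lost in 14 of 23 alternatives, again with each of the other 7 KO libraries left out, and the edgeR adjusted p ran up to 0.135 with 1 library left out.

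No member differed between the genotypes by edgeR. Untreated, 0 of 10 members were called and 0.0459% of genes were called in either direction, and DESeq2 called 0 members and 0.469% of genes. At an unadjusted p under 0.05 there were 2 members, Spp1 and Tgfbi, with 10.9% of genes. The Tgfbi difference of 0.90 ± 0.37 became 0.0288 ± 0.11 without KO untreated replicate 1. Without that library 0 members were called, with 0.0994% of genes, and 3 were at an unadjusted p under 0.05 (Spp1, Vcan and Ltbp2), with 12% of genes.

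With TGF-β1, 0 of 10 members differed between genotypes by edgeR, with 0.0382% of genes called, and DESeq2 called 1 member, Fn1, with 0.188% of genes. At an unadjusted p under 0.05 there were 2 members, Fn1 and Spp1, with 5.61% of genes. Without KO untreated replicate 1, 0 members and 0.0612% of genes were called, and Fn1 and Spp1 were again at an unadjusted p under 0.05, with 6.68% of genes. The largest difference among members was that of Fn1. KO libraries lay at 1.56 to 4.16 CPM, below fl/fl libraries at 6.16 to 8.29 CPM, a separation downward that 2.61% of genes showed. The log2 difference was -1.25 ± 0.27, with an unadjusted p of 2.6e-04 and an adjusted p of 0.244 by edgeR, and an adjusted p of 0.00664 by DESeq2. With 1 library left out, the edgeR adjusted p ran from 0.144 to 0.809.

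For the response difference, KO minus fl/fl, 0 members and 0% of genes were called by edgeR, and 0 members and 0.00768% of genes by DESeq2. With all libraries Fn1 was the 1 member at an unadjusted p under 0.05, with 2.1% of genes. Its value was -0.94 ± 0.38 (edgeR adjusted p = 0.993, unadjusted 0.0258), and without KO untreated replicate 1 it was -0.72 ± 0.38 (edgeR adjusted p = 0.982, unadjusted 0.0753). In that fit 0 members and 0% of genes were called, and the 1 member at an unadjusted p under 0.05, with 1.96% of genes, was Ltbp2. Its response difference there was 1.10 ± 0.51 (edgeR adjusted p = 0.982).

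**Figure D3:**
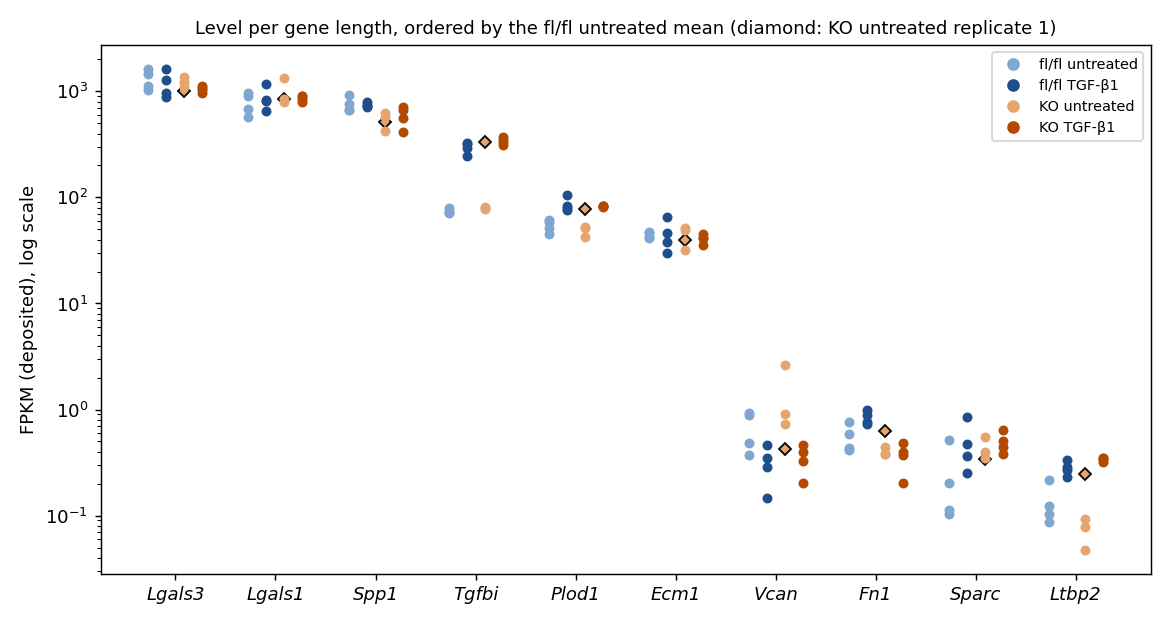
Deposited FPKM of each member in each library on a log axis, ordered by the fl/fl untreated mean, with KO untreated replicate 1 as a diamond. Lgals3, Lgals1 and Spp1 are at 417 or more in every library, Tgfbi, Plod1 and Ecm1 are in the middle, and the other 4 are at 2.62 or less.

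Levels per length, as FPKM, put the members in 3 tiers in the fl/fl untreated libraries. Lgals3 at 1308 ± 275 (SD, n = 4) came above Lgals1 at 784 ± 183, without overlap. Lgals1 and Spp1 at 758 ± 124 overlapped. Tgfbi at 74.8 ± 4.13 was above Plod1 at 54.1 ± 7.14, and Plod1 overlapped Ecm1 at 44.3 ± 2.93. Vcan at 0.665 ± 0.278, Fn1 at 0.551 ± 0.161, Sparc at 0.233 ± 0.192 and Ltbp2 at 0.132 ± 0.0571 each overlapped the next. With TGF-β1 in fl/fl libraries Tgfbi was at 296 ± 36.4, and it kept its place in the order. Fn1, at 0.839 ± 0.118, came ahead of Vcan, at 0.312 ± 0.134, on the FPKM scale after treatment.

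Other matrix genes were followed in lists drawn up by role in the matrix, with earlier results of these data known. Of 16 tested glycoproteins and matricellular genes, 3 rose in fl/fl macrophages and 0 fell, with a median log2 fold change of 0.36 against -0.01 over all genes. Tnc, for the glycoprotein tenascin-C, was the one with the largest rise, 2.27 ± 0.70 (edgeR adjusted p = 0.0355), at 0.806 ± 0.494 CPM with TGF-β1. Emilin1, a microfibril-associated glycoprotein, rose by 0.89 ± 0.18 (edgeR adjusted p = 0.00331). In KO macrophages 0 of the 16 were called with all libraries and 2 rose without KO untreated replicate 1.

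Of 4 tested genes of the fibrillin and LTBP list, Ltbp3, a latent TGF-β binding protein, rose by 0.62 ± 0.18 in fl/fl (edgeR adjusted p = 0.0220). Nrros, the membrane anchor of latent TGF-β on myeloid cells, went from 266 ± 8.58 to 91.8 ± 5.89 CPM and fell by 1.53 on the log2 scale in fl/fl (edgeR adjusted p = 7.2e-04). In KO it fell by 1.496 (edgeR adjusted p = 0.00689). Of 6 tested collagens, Col15a1 and Col27a1 rose in fl/fl, by 2.78 ± 0.62 and 2.16 ± 0.63 (edgeR adjusted p = 0.00715 and 0.0253). In KO 0 of the 6 were called with all libraries and 3 rose without replicate 1. The fibrillar collagens of stromal cells stayed near 0: Col1a1, Col1a2 and Col3a1 did not exceed 0.968 CPM in any library.

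Of 13 tested genes of collagen modification and cross-linking, the list that Plod1 belongs to by function, 2 rose in fl/fl and 0 fell. Tgm2, the cross-linking enzyme transglutaminase 2, rose by 2.62 ± 0.49 (edgeR adjusted p = 0.00268) and P4ha1, a prolyl hydroxylase subunit, by 0.81 ± 0.15 (edgeR adjusted p = 0.00156). In KO 1 of the 13 rose, P4ha1, by 0.58 ± 0.15 (edgeR adjusted p = 0.0316). The KO value for Tgm2 was 1.05 ± 0.46, which missed the threshold (edgeR adjusted p = 0.251). Without replicate 1 it was 1.99 ± 0.27 (edgeR adjusted p = 2.6e-05). Of 4 tested genes in the list of other galectins and the galectin-3 binding protein, 1 rose in each genotype, Lgals9. It rose by 0.79 ± 0.16 in fl/fl and 0.60 ± 0.16 in KO (edgeR adjusted p = 0.00289 and 0.0388). Without replicate 1, 2 of the 4 rose in KO. Of 8 tested proteoglycan and hyaluronan genes 1 fell in each genotype, Sdc4, a cell-surface heparan sulfate proteoglycan. Sdc4 went from 237 ± 23.5 to 54.5 ± 8.91 CPM, a log2 fold change of -2.12 ± 0.31 in fl/fl (edgeR adjusted p = 7.2e-04), and of -1.64 ± 0.30 in KO (edgeR adjusted p = 0.0105).

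**Figure D4:**
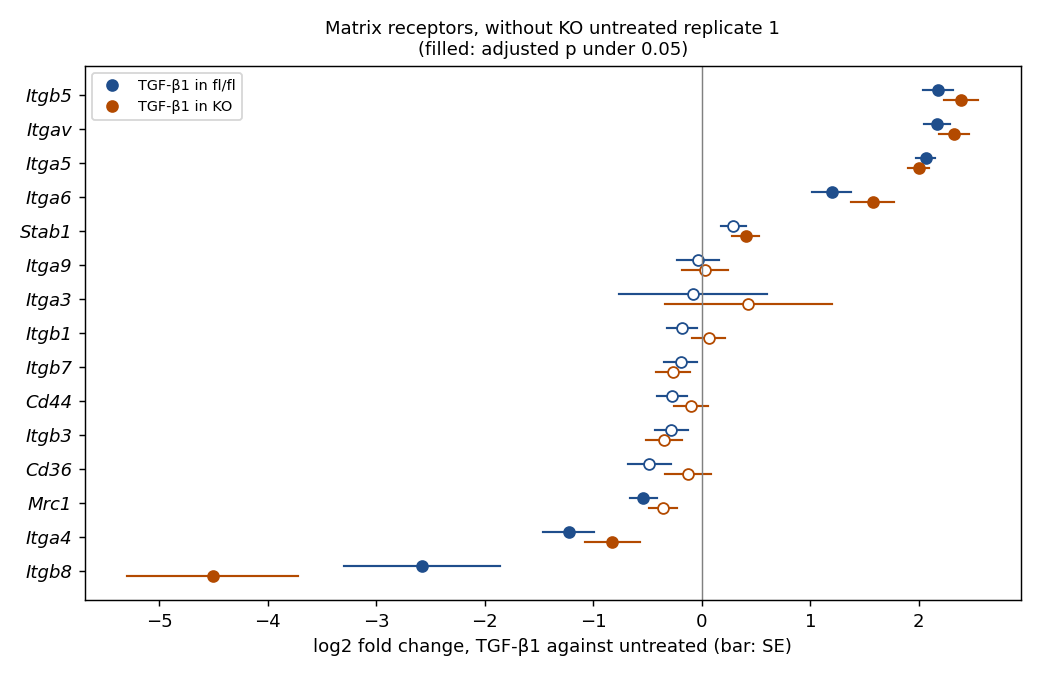
Log2 fold change with TGF-β1 (points) and its SE (bars) for the 15 tested matrix receptors in fl/fl and KO macrophages, with KO untreated replicate 1 left out, filled where the adjusted p is under 0.05. Itgb5, Itgav and Itga5 have the largest rises, near 2 in both genotypes.

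Receptors for the members moved in both directions. Of 15 tested matrix receptors, 4 rose and 3 fell with TGF-β1 in fl/fl, and 2 rose and 1 fell in KO. The integrin subunits Itgb5 and Itgav, which pair as a receptor for vitronectin and for latent TGF-β, rose by 2.18 ± 0.42 and 2.17 ± 0.39 in fl/fl (edgeR adjusted p = 0.00301 and 0.00200). Itgb5 was at 256 ± 22.1 CPM in fl/fl untreated and 1165 ± 79.6 CPM in fl/fl TGF-β1 libraries. KO untreated replicate 1 was at 1016 CPM, against 157 to 266 CPM in the other KO untreated libraries. Itgb8, another partner of Itgav, fell, with 13 to 24 counts in fl/fl untreated libraries and 1 to 5 with TGF-β1 (edgeR adjusted p = 0.0406). Itga4, a fibronectin-binding subunit, fell by 1.22 on the log2 scale (edgeR adjusted p = 0.00545). Without replicate 1, 5 receptors rose and 2 fell in KO.

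Markers of 4 other cell types held genes that passed the test for TGF-β1 in fl/fl. The summed level of 5 endothelial markers was 72.6 to 85.9 CPM in fl/fl untreated and 105 to 149 CPM in fl/fl TGF-β1 libraries, carried by Vwf and Kdr. Vwf passed the test, Cdh5 did not exceed 1.61 CPM in any library, and Tek and Emcn did not exceed 0.134 CPM. The 5 osteoblast markers summed to 8.20 to 11.3 CPM and to 21.7 to 29.8 CPM in the same groups, through Runx2, while Ibsp had no count and Bglap, Sp7 and Alpl stayed at or under 0.448 CPM. The 6 osteoclast markers summed to 27.4 to 33.2 CPM and to 17.4 to 26.8 CPM, and 1 of the 5 tested fell, Atp6v0d2, by 1.33 on the log2 scale. The 5 T cell markers summed to 8.55 to 10.6 CPM and to 5.00 to 6.98 CPM; the 1 tested, Cd4, fell by 0.75, and Cd3e and Cd3g had no count. The part of these cell types in the members' values was not tested. One library, fl/fl TGF-β1 replicate 4, had the fewest detected genes (14915) and the lowest mitochondrial share (0.575%). In its group it was highest for Fn1, Ecm1, Spp1, Sparc, Lgals1, Lgals3 and Plod1 and lowest for Vcan. Without it the fl/fl log2 fold changes were 0.67 ± 0.50 for Sparc, -0.79 ± 0.55 for Vcan and -0.15 ± 0.16 for Ecm1. Plod1 was 0.62 ± 0.16 and still passed (edgeR adjusted p = 0.0158). The part of RNA quality in the members' values was not tested.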

How the data were processed

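The tools named in the submitters' processing notes are Cufflinks 2.1.1, TopHat2 2.0.9 and HTSeq 0.6.1. The notes give GRCm38.p6 and mm10 as builds and assign no roles. The authors' deposited count table holds raw counts for 35275 genes, and their deposited FPKM table holds those counts scaled by gene length and library total. Counting options, strand included, are not given in the sources used here. Of the 10 members, 8 had the same coordinates in GENCODE M21 and all 10 overlapped there on the same strand.

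Counts were TMM-scaled and fitted in edgeR 4.0.16 (R 4.3.3) with 1 quasi-likelihood model over 16 libraries and a mean per group. filterByExpr kept 13080 genes, and p-values were adjusted over all of them by Benjamini-Hochberg at 0.05. CPM uses the TMM-scaled total. Intervals are 95%. The contrasts tested were the TGF-β1 response within either genotype, the genotype difference within either treatment, and the difference of responses. Scripts were tested on simulated counts. Alternatives were DESeq2 1.42.0, its size factors, no filter, limma 3.58.1 on log2(FPKM + 0.1) and log2(FPKM + 1), a replicate block, the 8 libraries of a contrast alone, and each library left out. Gene lists without KO untreated replicate 1 were added after seeing the data.

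The members and lists were chosen with earlier results of these data known. Named genes are the members, Smad7, up to 2 highest and 2 lowest called genes per list in fl/fl, and the 3 nearest to the member with the largest change. Marker genes are named by their list. Replicate numbers are shared between groups. Deviations of same-numbered libraries correlated at 0.123 to 0.181 in the fl/fl comparison, at 0.0754 to 0.239 in KO and below 0 between genotypes. The labels do not say that a number marks a shared animal. The main fit therefore had no pairing, and the replicate block was an alternative. The block changed no member's call in the fl/fl comparison.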

Additional observations from a re-analysis of the deposited data

Results flagged for a closer look

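Among 40 groups of 4 libraries (10 members in 4 groups), 4 had a library far from the other 3, and chance alone flags about 1 in 20 such groups. Tgfbi was at 875 CPM in KO untreated replicate 1, against 201 to 214 CPM in the other KO untreated libraries. Ecm1 was lowest in KO TGF-β1 replicate 2, at 66.4 CPM, against 79.9 to 81.2 CPM in the others of that group. Spp1 was highest in fl/fl TGF-β1 replicate 4, at 1221 CPM, against 1139 to 1147 CPM in the others. Lgals1 was highest in KO untreated replicate 2, at 1015 CPM, against 621 to 666 CPM.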

How the results depend on the processing

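Tgfbi and Plod1 with TGF-β1 in fl/fl passed in all 23 alternatives, with log2 fold changes of 1.96 to 2.13 and 0.62 to 0.78. The number of members higher in KO ran from 0 to 3 with 1 library left out and was 0 with the 8 libraries of the contrast alone, where 0 of all genes were called in KO, higher or lower, against 1095 higher and 1067 lower in fl/fl. Ltbp2 lost its call in KO in 13 of 23 alternatives and Plod1 in 14 of 23. The number lower in KO ran from 0 to 1 with 1 library left out and was 1 by DESeq2. DESeq2 also called 1 member lower in KO with TGF-β1. The cause was not tested. With a replicate block, which gives same-numbered libraries of all groups a shared term, Tgfbi in KO was 1.499 (edgeR adjusted p = 0.0271). No other member's call changed with the block. Directions reversed only for values that did not pass. With 1 library left out, Ecm1 ran from -0.15 to 0.21 in fl/fl and -0.16 to 0.0707 in KO, Spp1 from -0.0328 to 0.13 and Lgals3 from -0.27 to 0.0237 in fl/fl, and Lgals1 from -0.16 to 0.0925 in KO. Ltbp2 in KO against fl/fl, untreated, ran from -0.87 to 0.13, and the response difference of Tgfbi from -0.96 to 0.12. With limma on log2(FPKM + 0.1) and log2(FPKM + 1), Ecm1 in fl/fl was -0.0365 and -0.0347, and Spp1 was -0.0162 in both. Counts of 4 to 50 per library limit Sparc and Ltbp2, and intervals cover the spread between libraries.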

Other observations

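Some matrix genes that did not pass with all 16 libraries passed without KO untreated replicate 1, and are named here after their values were seen. No other alternative was run for them. Fbn1, for fibrillin-1, had log2 fold changes of -2.03 ± 0.51 in fl/fl and -1.67 ± 0.50 in KO (edgeR adjusted p = 0.00861 and 0.0291). Col14a1, a fibril-associated collagen, had 1.53 ± 0.47 and 2.71 ± 0.58 (edgeR adjusted p = 0.0299 and 0.00278). P4ha2, a prolyl hydroxylase subunit like P4ha1, had -0.76 ± 0.24 in KO (edgeR adjusted p = 0.0413), opposite in sign to P4ha1 at 0.82 ± 0.11.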
